A study of Homo sapiens with 18 samples.

Results

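ERN1 and ERN2 encode the IRE1 paralogues IRE1α and IRE1β, XBP1 encodes the transcription factor made from the mRNA that both paralogues cleave, and BHLHA15 encodes the secretory cell transcription factor MIST1. These 4 genes were followed through an RNA-Seq experiment in HEK293doxERN2 cells, a human embryonic kidney line with a FLAG-tagged ERN2 transgene under the control of doxycycline. The genes were picked by name, as 4 of the 25435 gene rows that were counted. Doxycycline was left out (0 ng/mL) or given over 24 hr at a low (10 ng/mL) or a high dose (100 ng/mL), followed by 3 hr of either the DMSO vehicle or 200 nM thapsigargin, in 3 libraries for each of the 6 groups and 18 libraries in all. All groups carry the transgene, so doxycycline and the transgene product cannot be told apart here, and reads on the ERN2 row add up the transgene and the endogenous gene. The labels name replicates without saying whether these were separate cultures, so the p values measure only the spread between these libraries.

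IRE1 proteins sit in the membrane of the endoplasmic reticulum (ER), where they act as sensors of protein folding and, once switched on, as RNA-cutting enzymes. When unfolded proteins build up, IRE1α cuts a short intron out of XBP1 mRNA, and the ligated message encodes the active factor, which turns on genes for folding, translocation, degradation, and vesicle transport. IRE1α is found in most cells, whereas IRE1β is mostly limited to mucosal epithelium, where goblet cells secrete mucins. MIST1 is a basic helix-loop-helix factor of exocrine cells and is known as a gene that XBP1 turns on. Thapsigargin blocks the pump that fills the ER with calcium and so causes ER stress.

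The libraries held 14876416 to 24652240 counted reads. The label for RNA extraction names colon crypt epithelium, whereas the other labels name the HEK293 line, and marker genes were checked for this reason. The 6 HEK293 markers (PAX2, NEFM, NEFL, VIM, KRT8, and KRT18) summed to 2540 to 3531 CPM (reads relative to the size of the library, after TMM scaling) over the vehicle libraries and to 2010 to 2815 CPM over the thapsigargin libraries. The 11 markers of colon epithelium and goblet cells summed to 0.543 to 1.60 and 0.751 to 1.42 CPM, and TFF3, CLCA1, and ZG16 had no read in any library. PTPRC, a blood cell marker, reached at most 0.282 CPM. Within the HEK293 list VIM was the highest, at 1336 to 2372 CPM over all libraries, and PAX2 the lowest, at 1.20 to 4.35 CPM. Replicates of a group differed by a chi-square of 7.09 to 61.2 per degree of freedom, above sampling noise in every pair, and the largest was that of replicates 1 and 3 of thapsigargin at 100 ng/mL. Without that replicate 1 edgeR called 2568 genes in the thapsigargin response at this dose, against 29 with it, and the counts and calls of the 4 genes that moved without it are given in the comparisons that hold it. The libraries thus held reads on all 6 markers listed for the cell line and close to none on those listed for the colon.

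The stretch of XBP1 mRNA that IRE1 removes is shown because the gene counts below cannot see it. It lies in exon 4 of transcript XBP1-201, within the coding sequence, at chr22:28796122-28796147 on the minus strand of GRCh38 (GENCODE 29), and is absent from another coding transcript of the gene. It is given with 27 bases on either side. Capitals mark the 26 bases as the annotation places them, which are 2 over a multiple of 3, so that the reading frame shifts after the cut. The same spliced product is obtained when the removed stretch is placed up to 6 bases further upstream, so the capitals need not begin at the exact cut.
XBP1 mRNA around the intron: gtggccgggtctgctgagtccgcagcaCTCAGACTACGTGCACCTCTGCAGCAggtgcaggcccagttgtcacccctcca
Reads on either form count for the same row, so all XBP1 values are levels of total XBP1 mRNA and not of splicing.

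The XBP1 promoter is shown because the thapsigargin response of XBP1 is the change on which most of the results turn. RefSeq (GRCh38.p14) places the 250 bases before its start at chr22:28800570-28800819 on the minus strand. Capitals mark the motifs that were searched on both strands, namely the ER stress response element (CCAAT followed by 9 bases of any kind and then CCACG), the shorter CCACG alone, the bZIP core ACGT, and the E-box CATATG.
XBP1 promoter: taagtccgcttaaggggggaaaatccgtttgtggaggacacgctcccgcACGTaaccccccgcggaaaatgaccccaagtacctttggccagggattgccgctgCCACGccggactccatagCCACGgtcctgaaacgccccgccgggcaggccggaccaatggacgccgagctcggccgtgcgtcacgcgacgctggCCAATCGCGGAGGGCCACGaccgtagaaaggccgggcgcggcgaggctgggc
The window held 1 ER stress response element from 52 to 34 bases before the start, 3 copies of CCACG of which 1 is the end of that element, and 1 ACGT from 201 to 198 bases before the start. Among 35116 promoter windows of the same length, the ER stress response element was found in 26 (0.074%), CCACG in 33.5%, ACGT in 29.3%, and CATATG in 2.63%. The windows of ERN1 and BHLHA15 held none of these letters. That of ERN1 (chr17:64130145-64130394) was set by its RefSeq start and lies within the GENCODE 29 span of the gene. Bases before the GENCODE start of ERN1 were not searched, and no window was available for ERN2.

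In GENCODE 29 ERN1 lies on chromosome 17 from 64039142 to 64130819 (minus strand), and BHLHA15 on chromosome 7 from 98211427 to 98212979 (plus strand). Between transcripts of ERN1 and ERN2 the longest identical run was 21 bases, and 0 of 10786 windows of 75 bases in ERN1, the length of a read, occurred in ERN2, although 63.2% of 2710 aligned coding bases were identical. Reads of the paralogues could therefore be told apart by sequence. The end of ERN2 overlaps the end of PLK1, a mitotic kinase gene on the opposite strand, by 42 bases (chr16:23690326-23690367), and no source used here says whether strand was used in counting. PLK1, which was looked up for its position and not by a rule, was at 263 to 273 CPM in uninduced vehicle cells and 194 to 248 CPM in uninduced thapsigargin cells. Reads on ERN2 came to 2.50% to 3.34% and 4.85% to 6.77% of those on PLK1 in these groups. The part of PLK1 in the uninduced ERN2 level was not tested.

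ERN2 levels separated the 3 doxycycline doses in both states. In thapsigargin-treated cells, ERN2 was at 14.2, 10.4, and 12.0 CPM (replicates 1, 2, and 3) without doxycycline, at 32.1, 53.9, and 111.5 CPM at 10 ng/mL, and at 272, 175, and 175 CPM at 100 ng/mL. In vehicle-treated cells the same doses gave 9.10, 6.57, and 7.71 CPM, then 22.5, 27.1, and 55.9 CPM, then 252, 309, and 249 CPM. In neither state did a library overlap with another dose, and replicate 3 was the highest library at 10 ng/mL in both states. ERN2 means ran, from low to high, over 0 ng/mL vehicle, 0 ng/mL thapsigargin, 10 ng/mL vehicle, 10 ng/mL thapsigargin, 100 ng/mL thapsigargin, and 100 ng/mL vehicle. The 2 states did not differ past the threshold at any dose in the main edgeR fits. At 0 ng/mL ERN2 passed with DESeq2 (adjusted p = 0.00622) and without a filter (0.00513), and at 100 ng/mL without replicate 1 of the thapsigargin group (0.00348). With the replicate number as a block in edgeR it passed at 0 and at 10 ng/mL, where same-numbered libraries did not all deviate together. A level of a bulk library is a mean over its cells, so that fewer cells with the transcript and less transcript per cell cannot be told apart.

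Under thapsigargin ERN2 was 17.0-fold higher at 100 than at 0 ng/mL (log2 fold change 4.08, standard error [SE] 0.220, adjusted p = 5.11e-07 by the quasi-likelihood test of edgeR). Doxycycline induces ERN2 by design. Of the 4 genes, ERN2 was called higher and ERN1 and XBP1 lower in this comparison at an adjusted p under 0.01, where 1.53% of 14358 genes were called higher and 9% lower (220 and 1292 genes, or 1957 and 1993 without replicate 1 at 100 ng/mL). From 10 to 100 ng/mL ERN2 rose 3.16-fold (log2 fold change 1.66, SE 0.351, adjusted p = 0.00830), with 0.235% of 14493 genes called higher and 5.32% lower (34 and 771 genes, or 1403 and 1309 without replicate 1 at 100 ng/mL, and 0 and 42 without replicate 2). This call was lost with DESeq2 (adjusted p = 0.0159) and without replicate 1 or 2 at 10 ng/mL or replicate 2 at 100 ng/mL (up to 0.0399). From 0 to 10 ng/mL its log2 fold change was 2.42 (SE 0.384, adjusted p = 0.292), in a comparison in which edgeR called 0% of 14509 genes (0 genes, with 612 at an unadjusted p under 0.05, and 39 called by DESeq2). Same-numbered libraries of these groups deviated together, and when that number entered the fit as a block the value was 2.27 (adjusted p = 4.15e-07) and 564 genes were called. The block changed no other call among the 4 genes in this comparison.

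ERN1 was lowest where ERN2 was highest. Its levels in thapsigargin-treated cells were 16.5, 17.5, and 13.6 CPM without doxycycline, 11.2, 14.8, and 10.2 CPM at 10 ng/mL, and 6.15, 5.14, and 5.84 CPM at 100 ng/mL. The libraries at 100 ng/mL lay below all others of that state, while those at 0 and 10 ng/mL overlapped. ERN1 fell by 1.48 on the log2 scale from 0 to 100 ng/mL under thapsigargin (SE 0.197, adjusted p = 0.000205), which is 2.79-fold lower, and by 1.07 from 10 to 100 ng/mL (SE 0.217, adjusted p = 0.00621). The second call was lost when replicate 1 or 2 at 10 ng/mL or replicate 2 or 3 at 100 ng/mL was left out (adjusted p up to 0.0716). Between 0 and 10 ng/mL the log2 fold change was -0.41 (SE 0.176, adjusted p = 0.978).

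In vehicle-treated cells ERN1 was at 7.45, 7.16, and 8.34 CPM without doxycycline, at 7.34, 7.57, and 8.12 CPM at 10 ng/mL, and at 4.02, 5.07, and 5.42 CPM at 100 ng/mL. The first 2 groups overlapped and the last lay below both. Against 0 ng/mL the log2 fold change at 100 ng/mL was -0.70 (SE 0.176, adjusted p = 0.0175), short of the threshold, though DESeq2 (adjusted p = 0.00868), the fit without a filter (0.00884), and the fit of all 6 groups (0.00922) passed it. In order of its group means ERN1 ran from 100 ng/mL vehicle (4.83 ± 0.730 CPM, SD, n = 3) and 100 ng/mL thapsigargin (5.71 ± 0.517) over 0 and 10 ng/mL vehicle (7.65 ± 0.614 and 7.68 ± 0.401) to 10 and 0 ng/mL thapsigargin (12.1 ± 2.38 and 15.9 ± 2.02). None of the neighbors tested in that order passed the threshold. The 100 ng/mL thapsigargin and 0 ng/mL vehicle groups were not tested against each other.

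**Figure D1:**
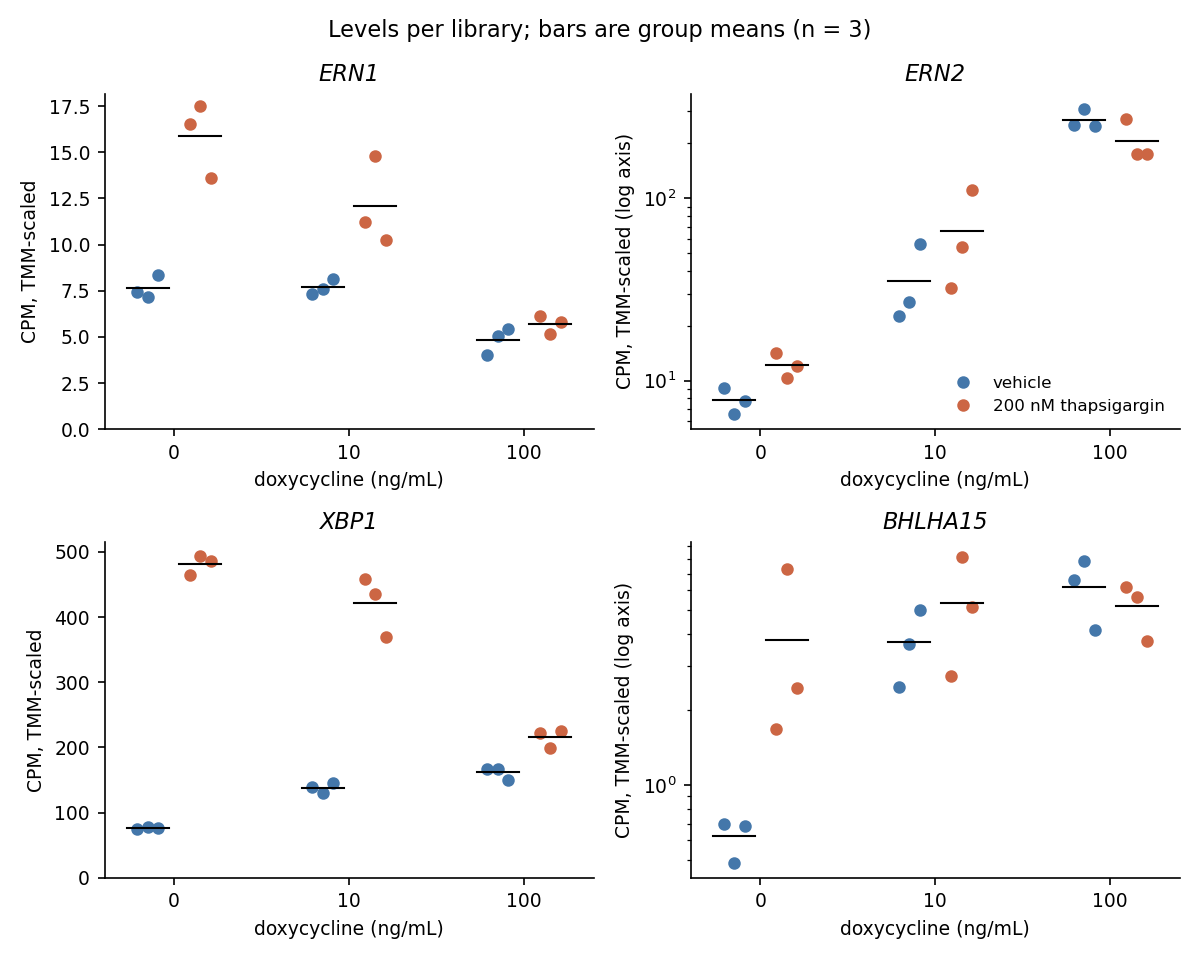
Levels of ERN1, ERN2, XBP1, and BHLHA15 (CPM, scaled by TMM over all libraries) against doxycycline dose (ng/mL), with 1 point per library, a bar at each group mean (n = 3), vehicle in blue and thapsigargin in orange. The y axes of ERN2 and BHLHA15 are logarithmic. XBP1 under thapsigargin dropped from 481 CPM on average at 0 ng/mL to 215 CPM at 100 ng/mL while its vehicle level went up from 76.8 to 162 CPM.

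Divided by coding length (2778 bases for ERN2, 2931 for ERN1), the reads of the paralogues can be set against each other within a library. All reads on a row were used, coding or not, and the whole transcripts differ more in length (3549 bases for ERN2, 7876 for ERN1). Without doxycycline ERN2 had 0.967 to 1.29 reads per coding kilobase for each of ERN1 in vehicle cells and 0.624 to 0.931 in thapsigargin cells. At 10 ng/mL the ratio was 3.24, 3.78, and 7.26 with vehicle and 3.02, 3.85, and 11.5 with thapsigargin. At 100 ng/mL it was 66.2, 64.4, and 48.4 with vehicle and 46.6, 35.9, and 31.6 with thapsigargin. The lower dose thus took the ratio to 4.76 ± 2.18 (SD, n = 3) with vehicle and the higher dose to 59.7 ± 9.80, and the ranges of the doses did not overlap in either state. At 100 ng/mL the 3 thapsigargin libraries lay below the 3 vehicle libraries. Per kilobase of whole transcript the mean ratio started from 2.27 in uninduced vehicle cells and reached 126 at 100 ng/mL. In uninduced thapsigargin cells it was 1.73, against 0.821 per coding kilobase, so which paralogue had more depends on the length used.

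**Figure D2:**
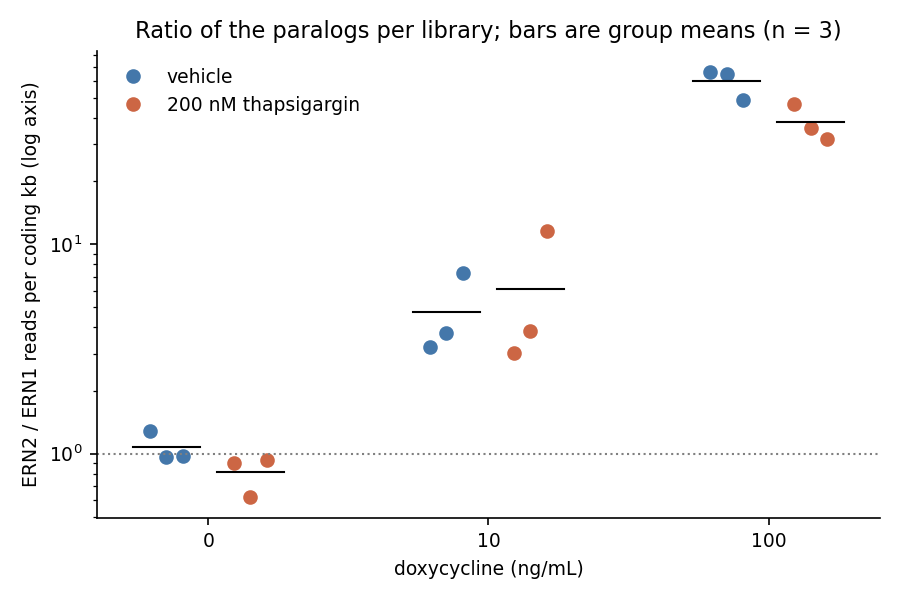
Reads of ERN2 per coding kilobase divided by those of ERN1 (log axis) against doxycycline dose (ng/mL), 1 point per library, bars at group means (n = 3), vehicle in blue, thapsigargin in orange. The dotted line marks equal reads per coding kilobase, which need not be equal levels. The 3 doses form separate bands, with means of 1.08, 4.76, and 59.7 in vehicle cells.

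Without doxycycline, thapsigargin raised ERN1, XBP1, and BHLHA15, that is 3 of the 4 genes, against 6.45% of 14397 genes called higher and 4.74% called lower. XBP1 went from 75.4, 78.0, and 77.1 CPM with vehicle to 464, 494, and 486 CPM with thapsigargin, a 6.30-fold rise (log2 fold change 2.66, SE 0.0990, adjusted p = 1.78e-09) that ranked 18 from the top among all genes tested. The replicates of either group lay close together and far from the other group. ERN1 rose 2.09-fold (log2 fold change 1.06, SE 0.155, adjusted p = 0.000451). ERN2 stood at 1.57-fold (log2 fold change 0.65, SE 0.174, adjusted p = 0.0168), and its 3 thapsigargin libraries lay above its 3 vehicle libraries.

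BHLHA15 had few reads in these uninduced cells, 14, 9, and 12 with vehicle and 31, 137, and 43 with thapsigargin. In CPM it went from 0.700, 0.488, and 0.686 to 1.68, 7.31, and 2.45, with replicate 2 of the thapsigargin group far above the other two. Its log2 fold change was 2.61 (SE 0.520, adjusted p = 0.00354). Without that library it was 1.72 (adjusted p = 0.00715), and without replicate 1 of the vehicle group the adjusted p was 0.0179.

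At 10 ng/mL doxycycline XBP1 was the only gene of the 4 called under thapsigargin, where 1.16% of 14607 genes were called higher and 0.294% lower. It went from 139, 130, and 145 CPM to 459, 435, and 369 CPM, or 3.04-fold (log2 fold change 1.61, SE 0.120, adjusted p = 9.40e-05). All 3 thapsigargin libraries were far above the vehicle libraries. Replicate 3, with most ERN2 in both groups at this dose, had the least XBP1 under thapsigargin and the most with vehicle. ERN1 had a log2 fold change of 0.65 (SE 0.177, adjusted p = 0.0554), and all 3 of its thapsigargin libraries were the higher ones. BHLHA15 went from 2.46, 3.66, and 5.02 CPM to 2.73, 8.13, and 5.15 CPM, with overlapping libraries (log2 fold change 0.51, SE 0.380, adjusted p = 0.439). ERN2 overlapped between these groups too (0.89, SE 0.434, adjusted p = 0.235).

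At 100 ng/mL none of the 4 genes was called by edgeR in response to thapsigargin, where 0.18% of 14427 genes were called higher and 0.0208% lower. At an unadjusted p under 0.05 only XBP1 passed among them, beside 3892 of 14427 genes. DESeq2 called none of the 4 and 732 of all genes. XBP1 was at 168, 167, and 151 CPM with vehicle and at 221, 199, and 225 CPM with thapsigargin (log2 fold change 0.44, SE 0.120, adjusted p = 0.0736). Each thapsigargin library was above each vehicle library, by a margin far smaller than without doxycycline. The share of all genes whose libraries separate in this way was not counted, in this or any other comparison. ERN1 overlapped (0.26, SE 0.209, adjusted p = 0.426), as did BHLHA15, which was at 6.57, 7.87, and 4.15 CPM with vehicle and 6.20, 5.63, and 3.77 CPM with thapsigargin (-0.23, SE 0.280, adjusted p = 0.608). ERN2 had a log2 fold change of -0.36 (SE 0.185, adjusted p = 0.233), which became -0.62 (adjusted p = 0.00348) without replicate 1 of the thapsigargin group, its highest library.

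**Figure D3:**
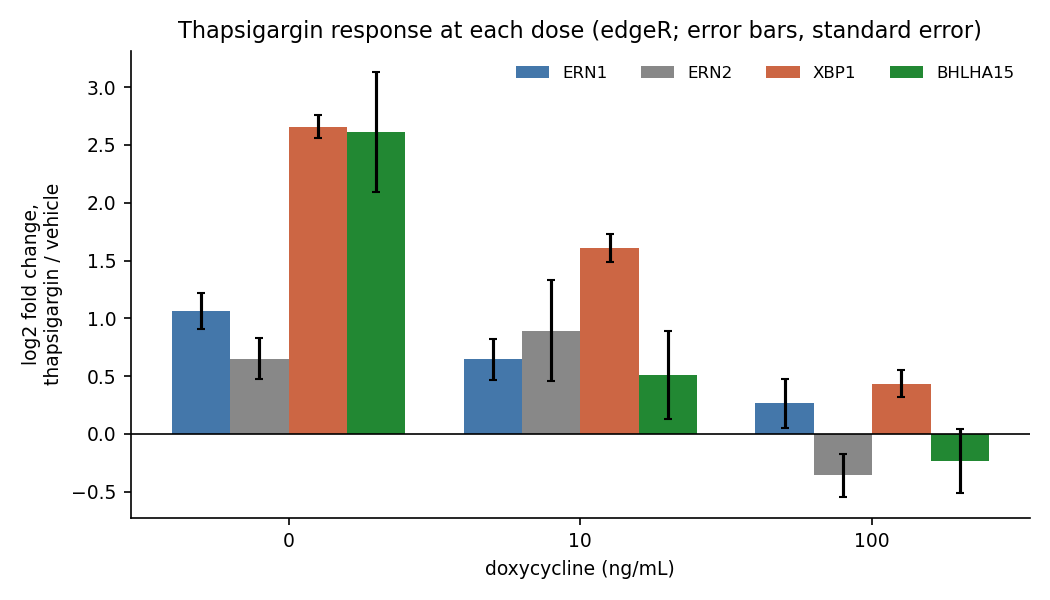
Log2 fold change of each gene between thapsigargin and vehicle at 0, 10, and 100 ng/mL doxycycline, with error bars of 1 standard error from edgeR (3 libraries per group). The XBP1 bars step down from 2.66 over 1.61 to 0.44, and the BHLHA15 bar drops from 2.61 to 0.51 and then to -0.23.

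The difference between these responses was tested itself, as an interaction of dose and thapsigargin over 12 libraries. The comparisons below share the uninduced libraries. At 100 against 0 ng/mL the response of XBP1 was lower by 2.14 on the log2 scale (log2 difference -2.14, SE 0.128, adjusted p = 1.20e-06), and XBP1 had the smallest p of 14768 genes. It was the 1 gene of the 4 that was called, with 0.0339% of genes called lower and 0.00677% higher. The 6 genes called in all were XBP1, FICD (-2.16), HERPUD1 (-1.21), PDIA4 (-1.40), HSPA5 (-1.58), and SUMO2 (1.05), named after their values were seen, of which FICD, HERPUD1, PDIA4, and HSPA5 act in ER folding or degradation. Without replicate 1 of thapsigargin at 100 ng/mL the count was 1286 (865 higher and 421 lower), and without any other single library 2 to 10. BHLHA15 had the larger difference of -2.77 but also the larger error (SE 0.674, adjusted p = 0.0629), ERN2 was at -0.93 (SE 0.260, adjusted p = 0.0811), and ERN1 at -0.72 (SE 0.237, adjusted p = 0.103). In the fit with 1286 calls, BHLHA15 at -2.97 (adjusted p = 0.00772) and ERN2 at -1.22 (adjusted p = 0.00248) passed as well, and XBP1 stayed between -2.28 and -2.10 in the 12 fits with a single library removed, all of them past the threshold. Scaling by library totals alone put the median of all genes in this comparison at -0.14, against 0.04 with TMM, and left XBP1 past the threshold.

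At 10 against 0 ng/mL the response of XBP1 was lower by 1.04 (log2 difference -1.04, SE 0.136, adjusted p = 0.0277). This was again the smallest p of 14857 genes, of which edgeR called 0% (0 genes, with 664 at an unadjusted p under 0.05, and 3 called by DESeq2). XBP1 passed the threshold with DESeq2 (adjusted p = 7.70e-09), without a filter (0.00866), and in the fit of all 6 groups (0.00636). BHLHA15 was at -2.09 (SE 0.764, adjusted p = 0.779), or -1.20 without the high replicate 2 of uninduced thapsigargin cells. ERN1 was at -0.41 (SE 0.226, adjusted p = 0.779) and ERN2 at 0.25 (SE 0.560, adjusted p = 0.895).

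Both ends of the XBP1 response moved. In vehicle cells XBP1 was 1.79-fold higher at 10 than at 0 ng/mL and 2.04-fold higher at 100 than at 0 ng/mL. In these comparisons XBP1 and BHLHA15 were called higher, and so was ERN2, which doxycycline induces by design. Among all genes 0.138% of 14497 and 0.838% of 14444 were called higher, and 0.0552% and 7.49% lower. The 3 calls at 10 ng/mL were lost without any 1 of the uninduced libraries or replicate 2 at 10 ng/mL (adjusted p up to 0.0481), while those at 100 ng/mL held in each such fit. Between 100 and 10 ng/mL ERN2 alone was called (not without replicate 2 at 10 ng/mL or replicate 3 at 100 ng/mL), against 0.0137% of 14549 genes called higher and 2.43% lower. In thapsigargin cells XBP1 was 2.24-fold lower at 100 than at 0 ng/mL (log2 fold change -1.16, SE 0.123, adjusted p = 3.65e-05) and 1.95-fold lower at 100 than at 10 ng/mL (-0.96, SE 0.143, adjusted p = 0.00113, and up to 0.0209 without replicate 1 or 2 at 10 ng/mL or replicate 2 at 100 ng/mL). Between 10 and 0 ng/mL it stood at -0.20 (SE 0.115, adjusted p = 0.978), with each library at 10 ng/mL below each at 0 ng/mL. From low to high, XBP1 ran over the vehicle groups at 0, 10, and 100 ng/mL (76.8 ± 1.32, 138 ± 7.80, and 162 ± 9.53 CPM, SD, n = 3) and then over the thapsigargin groups at 100, 10, and 0 ng/mL (215 ± 14.1, 421 ± 46.4, and 481 ± 15.7 CPM). Of these neighbors, 10 and 100 ng/mL vehicle, 100 ng/mL vehicle and thapsigargin, and 10 and 0 ng/mL thapsigargin did not differ past the threshold.

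BHLHA15 was called higher with doxycycline in vehicle cells, and none of its dose comparisons in thapsigargin cells was called. Its vehicle means rose from 0.625 ± 0.118 CPM (SD, n = 3) to 3.71 ± 1.28 and 6.20 ± 1.89 CPM. The log2 fold changes of 2.56 and 3.26 against 0 ng/mL ranked 1 and 2 from the top of all genes tested. Both are set against only 9 to 14 reads in the uninduced vehicle libraries. Under thapsigargin the means were 3.81 ± 3.05, 5.34 ± 2.71, and 5.20 ± 1.27 CPM. The 3 thapsigargin groups overlapped, with log2 fold changes of 0.46 (SE 0.520, adjusted p = 0.978) at 10 and 0.44 (SE 0.444, adjusted p = 0.518) at 100 against 0 ng/mL. Without replicate 2 of the uninduced thapsigargin group these were 1.36 (adjusted p = 0.9998) and 1.35 (adjusted p = 0.0235). Apart from uninduced vehicle cells, all libraries lay between 1.68 and 8.13 CPM, and in each group the replicates of BHLHA15 were more spread on the log2 scale than those of ERN1 and XBP1.

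Genes known as XBP1 targets were read from a list of 20 that were all tested. Without doxycycline 11 of the 20 rose with thapsigargin and none fell, where 6.45% of all genes were called higher and 4.74% lower, with a median log2 fold change of 0.79 against -0.01 over all genes. The highest was DNAJB9, an ER cochaperone that binds IRE1α (2.72, SE 0.185, adjusted p = 8.87e-07), and the lowest KDELR3, a retrieval receptor for ER proteins. At 10 ng/mL 7 rose (1.16% of all genes) and the median was 0.62, with DERL3, a component of ER-associated degradation, at the top (1.82) and the translocon subunit SEC61B at the bottom (-0.45). At 100 ng/mL only HYOU1, an ER chaperone, rose (0.96, adjusted p = 0.00835, with 0.18% of all genes called higher), the median was 0.18, and WFS1 was the lowest at -0.63. With single libraries left out, the first count ran from 9 to 15, and the second from 1, without replicate 2 of the vehicle group, to 10, without replicate 3 of the thapsigargin group. Over these fits 436 to 1092 and 25 to 368 of all genes were called higher. HYOU1 stood alone with all libraries. Without replicate 1 of the thapsigargin group at 100 ng/mL 6 targets rose and 2 fell, beside 1426 and 1142 of 14575 genes. Leaving out any other library of that comparison gave 0 calls of targets by edgeR. With all libraries, 9 were higher and 7 lower at an unadjusted p under 0.05, beside 2112 and 1780 of 14427 genes. DESeq2 called 4 higher and 1 lower, beside 257 and 475 of all genes.

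DERL3 went from 35.2 ± 3.17 CPM (SD, n = 3) at 0 ng/mL to 73.7 ± 9.83 CPM at 100 ng/mL in vehicle cells and from 219 ± 22.6 to 147 ± 32.0 CPM in thapsigargin cells. The first of these changes passed the threshold (log2 fold change 1.02, adjusted p = 0.000158) and the second did not (-0.58, adjusted p = 0.0302). For DNAJB9 the thapsigargin level was 75.8 ± 20.8, 77.2 ± 13.3, and 79.2 ± 14.6 CPM at the 3 doses, while its vehicle level went from 11.6 ± 1.14 over 27.6 ± 4.39 to 50.2 ± 10.2 CPM. Between 100 and 0 ng/mL, 9 of the 20 targets were higher and none lower in vehicle cells (median 0.41), where 0.838% of all genes were called higher and 7.49% lower, from DNAJB9 at 2.07 to DNAJC3 at -0.35. In thapsigargin cells only SEC61B was higher (0.80), and DNAJC3 (-1.48), HYOU1 (-1.26), PDIA4 (-0.93), and DNAJB11 (-0.87) were lower, with a median of -0.33 against 0.04 over all genes, of which 1.53% were called higher and 9% lower. Without replicate 1 of the thapsigargin group at 100 ng/mL 8 were lower, and without its replicate 2 this was 2, beside 1993 of 14527 and 733 of 14577 genes. For the difference between the thapsigargin responses at 100 and 0 ng/mL, all 20 values were below 0 with a median of -0.92. Of these 1 (PDIA4) passed the threshold, and 13 had an unadjusted p under 0.05 (as did 1351 of 14768 genes with a value below 0). With DESeq2 12 passed, where it called 341 of all genes, 203 of them lower.

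**Figure D4:**
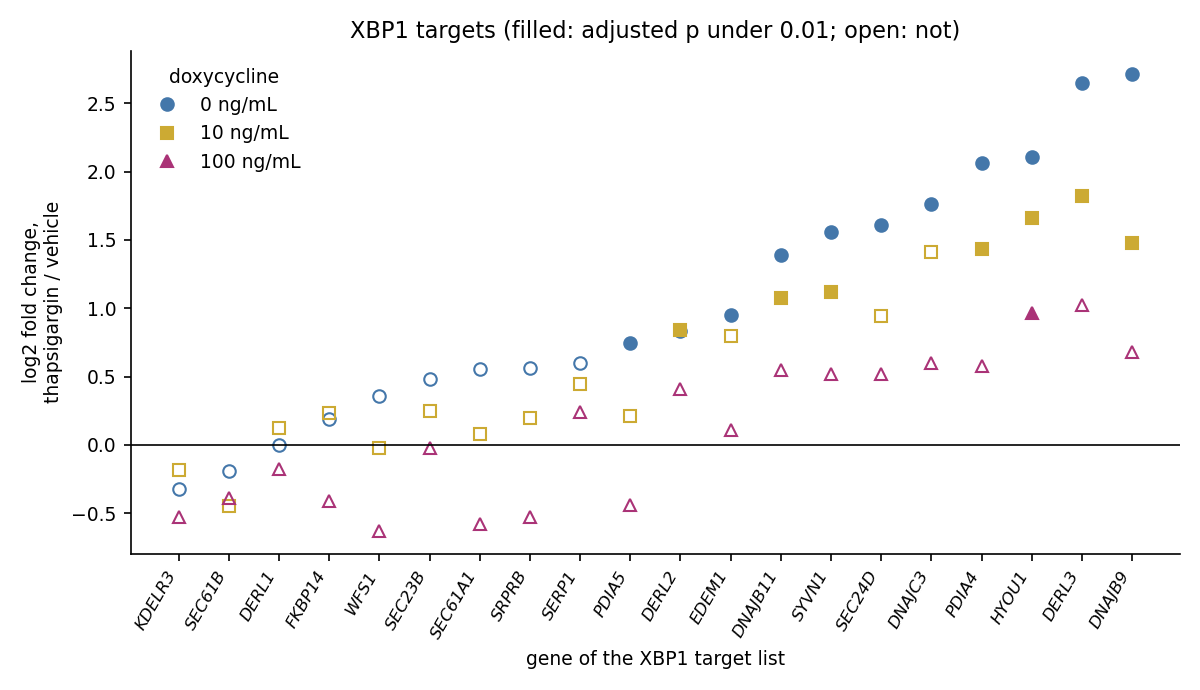
Log2 fold change between thapsigargin and vehicle for the 20 XBP1 targets, sorted by the value at 0 ng/mL, at 0 (blue circles), 10 (yellow squares), and 100 ng/mL doxycycline (purple triangles). Filled symbols passed an adjusted p of 0.01. At the right end DNAJB9 comes down from 2.72 over 1.48 to 0.68 and DERL3 from 2.65 over 1.82 to 1.02.

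The proteins that regulate or bind IRE1α were read from a list of 13, in part shared with the XBP1 targets (DNAJB9 and SYVN1). Without doxycycline 5 rose with thapsigargin and 1 fell, beside 6.45% and 4.74% of all genes, with a median of 0.33 against -0.01. HSPA5, which encodes BiP, the chaperone that holds IRE1α inactive, was the highest (2.87, SE 0.168, adjusted p = 2.33e-07), and TMBIM6, an ER membrane protein known as an IRE1α inhibitor, was the lowest (-0.60, adjusted p = 0.00125). At 10 ng/mL 4 rose (1.16% of all genes), and at 100 ng/mL, where 0.18% did, HSPA5 alone (1.20, adjusted p = 0.00141), with SERPINH1, a collagen chaperone, at the bottom (-0.95, adjusted p = 0.0131). Between 100 and 0 ng/mL, 3 were higher and 2 lower in vehicle cells, whereas 0 were higher and 5 lower in thapsigargin cells, with medians of 0.18 and -0.30 against -0.01 and 0.04 over all genes. Among all genes 0.838% were called higher and 7.49% lower in vehicle cells, and 1.53% and 9% in thapsigargin cells. OS9, a lectin of ER-associated degradation, was the lowest in both states, at -1.05 (adjusted p = 3.13e-05) and -1.42. BAX was the highest member under thapsigargin at 0.18.

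The 5 genes of the complex that ligates XBP1 mRNA after the cut (RTCB, ZBTB8OS, DDX1, RTRAF, and FAM98B) gave no call in any of the comparisons by edgeR. For the thapsigargin responses, 3 had an unadjusted p under 0.05 and were lower without doxycycline, 0 at 10 ng/mL, and 1 was higher at 100 ng/mL. Among all genes 2470 of 14397 were lower in the first of these and 2112 of 14427 higher in the last. Under thapsigargin, 4 of the 5 had an unadjusted p under 0.05 and were higher both at 100 against 0 ng/mL (median 0.54) and at 100 against 10 ng/mL (median 0.41). The same held for 2343 of 14358 and 2066 of 14493 genes. DESeq2 called 1 lower without doxycycline, and 2 higher at 100 against 0 ng/mL and 1 higher at 100 against 10 ng/mL under thapsigargin. Of all genes it called 1076 of 14397 lower, and 677 of 14358 and 424 of 14493 higher, in these comparisons. RTCB, the ligase itself, had log2 fold changes of 0.12, -0.02, and -0.18 with thapsigargin at 0, 10, and 100 ng/mL, and FAM98B had -0.59, -0.04, and 0.51. Known MIST1 targets gave little to read, since 3 of 5 were tested and 1 was called in the thapsigargin responses, RAB3D, a GTPase of secretory granules, which fell without doxycycline (-0.81, adjusted p = 0.00457). Its value at 10 and 100 ng/mL was -0.73 and -0.44, and CCPG1, a receptor for ER-phagy, was the highest at 0.16, 0.29, and -0.24. GJB1 had no read in any library, and ATP2C2 had at most 5.

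Over the 18 libraries, the genes with the pattern most like each of the 4 were picked by Pearson's r of log2 CPM among 15022 genes. The r is a description, since the libraries share 6 treatments. For XBP1 they were DERL3 (0.97), the small RNA gene RNU86 (0.97), and PDIA4 (0.97). For ERN1 they were SLC35B1, a transporter that brings ATP into the ER (0.96), ATP2A2, the calcium pump that thapsigargin blocks (0.96), and the zinc transporter SLC39A14 (0.96). SLC35B1, for example, was at 85.0 ± 16.0 CPM (SD, n = 3) in uninduced thapsigargin cells and 32.9 ± 2.43 CPM at 100 ng/mL. For BHLHA15 they were NDUFV3 (0.96), a subunit of respiratory complex I, SRP68 (0.96), a protein of the signal recognition particle, and PREB (0.95), which starts the COPII coat. For ERN2 the values were lower, with CCDC136 (0.88), GLOD4 (0.88), and SEC24C (0.88), another COPII gene, which went from 176 ± 5.46 to 329 ± 38.4 CPM in vehicle cells.

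Libraries of the same group differed in ERN2, and this was used to ask whether the other genes went along with it. The spread was widest at 10 ng/mL, where the SD of log2 CPM was 0.69 with vehicle and 0.90 with thapsigargin, against 0.18 to 0.37 in the other groups. Over the deviations of the 18 libraries from their group means, Pearson's r with ERN2 was 0.023 for ERN1 (p = 0.964, Spearman's rho 0.088, p = 0.777), -0.35 for XBP1 (p = 0.472, rho -0.13, p = 0.698), and 0.33 for BHLHA15 (p = 0.324, rho 0.36, p = 0.214). The p values are two-sided and from an exact permutation test over all 46656 exchanges within groups, and the 3 adjusted p values of r were 0.964, 0.708, and 0.708 (0.777, 0.777, and 0.643 for rho). No relation passed a test. Each r pools vehicle and thapsigargin libraries, so relations of opposite sign in the states would offset each other. Between group means, XBP1 did go opposite ways (log2 fold change at 100 against 0 ng/mL of 1.03 with vehicle and -1.16 with thapsigargin). The states were not tested apart, so whether a gene goes along with ERN2 within a state is not answered. Without the 2 libraries farthest out, replicate 3 of both groups at 10 ng/mL, r was 0.46 (exact permutation p = 0.220), -0.16 (p = 0.654), and 0.30 (p = 0.487), each with an adjusted p of 0.654.

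The same question in a fit across all genes gave a slope, the log2 change for each doubling of ERN2 within groups. The slope was shared by vehicle and thapsigargin groups, so it has the same limit. It was 0.0067 (SE 0.116, adjusted p = 0.971) for ERN1, -0.060 (SE 0.0642, adjusted p = 0.4997) for XBP1, and 0.39 (SE 0.300, adjusted p = 0.345) for BHLHA15. Of these 3 genes 0 had an unadjusted p under 0.05 by edgeR, beside 6023 of 15022 genes. edgeR called 0 of the 3 at the threshold and 0.0865% of 15022 genes (13 genes). That count was 1202 and 1135 without replicates 1 and 3 of uninduced thapsigargin cells, 1033 without replicate 2 of vehicle at 10 ng/mL, 0 without replicate 3 of thapsigargin at 10 ng/mL, and 2 to 42 without any other library, while none of the 3 genes was called in any of these fits. Without replicate 3 of the thapsigargin group at 10 ng/mL the slope of XBP1 was 0.024, and r was 0.18.

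**Figure D5:**
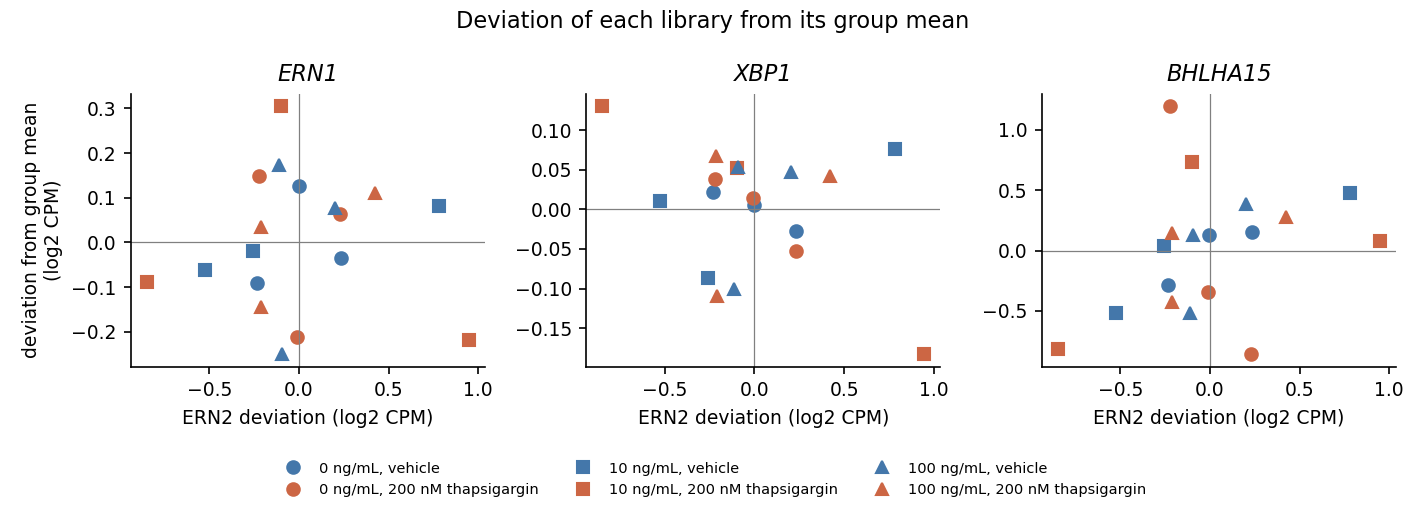
Deviation of ERN1, XBP1, and BHLHA15 from the group mean (log2 CPM, y axis, with its own range in each panel) against that of ERN2 (log2 CPM, x axis), 1 point per library, symbols by dose and colors by state. The squares farthest to the right are replicate 3 at 10 ng/mL, with ERN2 deviations of 0.78 and 0.95, and without them r is 0.46, -0.16, and 0.30 in panel order.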

How the data were processed

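RNA-Seq libraries of HEK293doxERN2 cells were prepared with a KAPA stranded mRNA HyperPrep kit and sequenced as single-end reads of 75 bases. Per the submitters' processing notes, STAR and the hg38 build were used. Version, annotation, and strand use are not given in the sources used here. The authors deposited a table of counts with a row for each gene symbol, neither normalized nor filtered. Groups came from the sample labels, and columns were matched to samples through the column number in each sample's description.

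Counts were tested with edgeR 4.0.16 (glmQLFit and glmQLFTest, R 4.3.3) on only the groups compared, after filterByExpr at a minimum count of 10 and TMM normalization, and p values were adjusted by Benjamini and Hochberg's method across the genes of each fit, with a threshold of 0.01. SEs were derived from the log2 fold change and its F statistic. CPM were scaled by TMM over all 18 libraries. Differences of the thapsigargin response were interactions in fits of 12 libraries. Within-group relations used log2 CPM with a prior count of 2 and exact permutation within groups, and the scripts were tested on simulated data. Alternatives were DESeq2 1.42.0, RLE size factors, library totals alone, no filter, all 6 groups, a replicate block, an adjusted p of 0.05, a prior count of 0.5, and each library left out.

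Replicate numbers are shared across groups in the labels. Deviations of same-numbered libraries correlated above 0.1 in every pair only between 10 and 0 ng/mL under thapsigargin (r of 0.343 to 0.468). Values of that comparison are nonetheless from the fit without pairs, except where the replicate block is named. The genes and lists were chosen with earlier results of these data known. The lists hold XBP1 targets, XBP1 mRNA ligation, ERN1 regulators and partners, and BHLHA15 targets, and the highest and lowest gene of each list, the 4 genes, and the 3 genes most like each were named by rule. Other genes were named after their values were seen. Sequences and positions came from GENCODE 29 (GRCh38) and RefSeq (GRCh38.p14), and figures from matplotlib 3.10.9. Depth limited the levels of BHLHA15 in uninduced vehicle cells most (9 to 14 reads).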

Additional observations from a re-analysis of the deposited data

Results flagged for a closer look

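The thapsigargin response of XBP1 differed between doses by the interaction test. The log2 fold change was 2.66 (SE 0.0990) at 0 ng/mL and 0.44 (SE 0.120) at 100 ng/mL doxycycline, a difference of -2.14 (SE 0.128, adjusted p = 1.20e-06 from edgeR). At 100 ng/mL the response itself was short of the threshold (adjusted p = 0.0736 from edgeR). At either dose each of the 3 thapsigargin libraries lay above each of the 3 vehicle libraries, and the share of all genes that separate so was not counted.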

How the results depend on the processing

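Apart from leaving out libraries, 326 values of 50 results were recomputed, of which 296 kept their direction and side of the threshold, 4 were no longer past it, 21 became so, 4 turned sign, and 1 moved. DESeq2 took ERN2 under thapsigargin to 0.64 at 0 ng/mL and 2.43 at 10 against 0 ng/mL, ERN1 at 100 against 0 ng/mL in vehicle cells to -0.70, and the XBP1 difference at 10 against 0 ng/mL to -1.04, all past the threshold, and ERN2 at 100 against 10 ng/mL under thapsigargin to 1.69, no longer past it. Without a filter the same values (0.65, 2.42, -0.70, and -1.04) and the BHLHA15 difference at 100 against 0 ng/mL (-2.80) passed. With all 6 groups fitted, ERN1 at -0.70 and XBP1 at -1.04 passed, and ERN2 at 2.17 and BHLHA15 at 2.56 at 10 against 0 ng/mL in vehicle cells did not. At an adjusted p of 0.05, ERN2 at 0.65, ERN1 at -0.70 and, at 100 against 10 ng/mL, -0.69, and XBP1 at -1.04 passed. ERN1 at 10 against 0 ng/mL in vehicle cells was -0.0018 with DESeq2 and -0.0020 with RLE, and BHLHA15 at 100 against 10 ng/mL under thapsigargin was 0.0082 without a filter. The cause of these changes was not tested.

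Where libraries shared only a number (pair correlations of -0.369 to 0.521, not above 0.1 in every pair), a replicate block put ERN2 without doxycycline (0.65), ERN1 (0.63) and ERN2 (0.84) at 10 ng/mL, ERN1 at 100 against 10 ng/mL in vehicle cells (-0.70), and the XBP1 difference at 10 against 0 ng/mL (-1.04) past the threshold, and ERN1 at 100 against 10 ng/mL under thapsigargin (-1.06) short of it. BHLHA15 in the latter comparison was 0.059, and the r of ERN2 with BHLHA15 was 0.51. In the paired comparison of 10 against 0 ng/mL under thapsigargin the block put ERN2 (2.27) past the threshold, and it changed no other call.

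With single libraries left out, 367 of 420 values kept their direction and side of the threshold, 25 were no longer past it, 3 became so, and 25 turned sign. The thapsigargin response of BHLHA15 at 0 ng/mL ran from 1.72 to 2.97 and that of ERN2 at 100 ng/mL from -0.62 to -0.24. At 10 against 0 ng/mL in vehicle cells, ERN1 ran from -0.044 to 0.071, ERN2 from 1.66 to 2.41, XBP1 from 0.80 to 0.89, and BHLHA15 from 2.27 to 2.78. At 100 against 10 ng/mL, ERN2 ran from 2.69 to 3.41 in vehicle cells and from 1.37 to 2.29 under thapsigargin, where ERN1 ran from -1.17 to -0.88, XBP1 from -1.04 to -0.86, and BHLHA15 from -0.31 to 0.45. For the differences of the response, ERN2 ran from -0.36 (without replicate 3 of thapsigargin at 10 ng/mL) to 0.75 at 10 against 0 ng/mL and from -1.22 to -0.83 at 100 against 0 ng/mL, and BHLHA15 from -3.24 to -1.91 at 100 against 0 ng/mL. The slopes on ERN2 ran from -0.059 to 0.18 for ERN1 and from -0.14 to 0.024 for XBP1, and the r from -0.099 to 0.44 and from -0.63 to 0.18. The ERN2 response at 10 ng/mL was 1.41 without replicate 3 of the vehicle group and 0.28 without replicate 3 of the thapsigargin group.

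Counts of called genes moved by over 1.5 times. For the thapsigargin responses at 0, 10, and 100 ng/mL they were 1611, 212, and 29, against 2335, 1101, and 732 with DESeq2, 2173, 529, and 299 without a filter, 1273, 676, and 941 with all 6 groups, 3571, 3620, and 4 with the block, and 3260, 1009, and 494 at an adjusted p of 0.05. In vehicle cells 10 against 0, 100 against 0, and 100 against 10 ng/mL gave 28, 1203, and 356, against 381, 1650, and 801 with DESeq2, 623, 1598, and 638 without a filter, 3, 1105, and 628 with all groups, 124, 750, and 1224 with the block, and 110, 2063, and 836 at 0.05. Under thapsigargin these were 0, 1512, and 805, against 39, 2331, and 1647, then 1, 2236, and 1646, then 0, 2641, and 2054, then 564, 1390, and 384, and 0, 3018, and 2061 at 0.05. The differences at 10 and 100 against 0 ng/mL gave 0 and 6, against 3 and 341, then 1 and 86, then 1 and 35, then 1 and 3, and 1 and 149, with 14 by RLE and 20 by library totals at the higher dose. The slope gave 13, against 1121 without a filter, 6 with the block, and 3732 at 0.05. With single libraries left out, the responses gave 731 to 1901, 28 to 494, and 4 to 2568, the vehicle comparisons 0 (without any uninduced library or replicate 2 at 10 ng/mL) to 2743 (without replicate 1 at 10 ng/mL), 915 to 1397, and 0 (without replicate 3 at 100 ng/mL) to 496, the thapsigargin comparisons 0 in each fit, 763 to 3950, and 42 to 2712, the differences 0 in each fit and 2 to 1286, and the slope 0 to 1202. The counts of 2568, 3950, 2712, and 1286 were those without replicate 1 of thapsigargin at 100 ng/mL. Library totals split the calls at 100 ng/mL into 28 higher and 23 lower, against 26 and 3. Depth limited BHLHA15 most, with 9 to 14 reads in uninduced vehicle cells.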
